A study of Mus musculus with 6 samples.

Results

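Alternative first exons and alternative transcript starts were compared across 6 RNA sequencing libraries of a mouse aortic cell line, 1 library per group. The regions are parts of genes between neighbouring splice sites or annotated transcript ends, called nodes, for which the authors deposited Psi, the fraction of a gene's RNA at that point that includes the node, and the number of reads behind it. A node was kept where its type was alternative first exon (AF) or transcript start (TS) and where it had 20 or more reads in all 6 libraries. This left 16880 of the 64381 AF and TS nodes in the tables, in 4802 genes, of 137615 nodes of all types that met the same read minimum. Of these, 2602 were alternative first exons in 1897 genes and 14278 were transcript starts in 3715 genes. By coordinates, 16801 of the 16880 lay at an annotated transcript start of GENCODE vM21 on the GRCm38 build.

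A gene with several promoters can begin its RNA at several first exons, each spliced to the same next exon. The choice can change the 5′ untranslated region, the start codon and the amino terminus of the protein, or it can leave the protein as it is and only place the gene under another set of enhancers. Reads that join a first exon to the shared next exon can tell its RNA from that of other promoters. Transcript starts of the TS type lie in tandem within 1 exon and share its splice site, so no junction read tells them apart. TNF is an inflammatory cytokine that turns on transcription through NF-kB and AP-1, and whether it moves RNA between promoters of the same gene was the main question. Ptbp1 is an RNA-binding protein known chiefly for repressing exons during splicing, and promoter choice comes before splicing.

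The cells were labelled aortic endothelial, cell line TetOn_SV40, an immortalised line that had been kept in doxycycline for expansion and was taken off it before the experiment. The KO line carries a CRISPR deletion of Ptbp1 and came from 1 clone, and the Rescue line is the KO line given a human PTBP1 cDNA, so Rescue cells carry the same deletion. The WT line has neither change. Each line was sampled after TNF at 30 ng/mL and without TNF, as KO with TNF, KO, Rescue with TNF, Rescue, WT with TNF and WT. With 1 library per group there are no replicate cultures, and in bulk RNA a shift of first exon within every cell and a shift in the share of cells that use it cannot be told apart.

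The groups used here are read from the deposited files' names, with basal taken as WT, an assumption. They differ from the labels for 4 of 6 libraries. The library named KO with TNF is labelled WT with TNF, the one named KO is labelled Rescue, the one named Rescue is labelled KO with TNF and the one named WT with TNF is labelled KO without TNF. Ptbp1 itself was at 275.1 and 265.8 TPM in the libraries named KO, 128.9 and 126.6 TPM in those named Rescue and 270.2 and 236.2 TPM in those named WT, so its RNA was not lower in the libraries named KO. Ptbp2, the neuronal relative that Ptbp1 represses, was at 106.0 and 127.9 TPM in KO, 45.29 and 42.21 TPM in Rescue and 20.67 and 22.79 TPM in WT. Ccl2, a TNF-induced chemokine, was at 1138 against 104.7 TPM in KO, 5202 against 169.2 TPM in Rescue and 6017 against 148.6 TPM in WT, with the library named as treated given first in each pair. Under the labels' groups the TNF-treated libraries would hold 1138, 5202 and 169.2 TPM of Ccl2 and the untreated ones 104.7, 6017 and 148.6 TPM. Every group name below is the named one, and values under the labels' groups are given beside the main results. Of 14 endothelial marker genes, 11 were under 1 TPM in all 6 libraries and Cldn5 was at 0, with a summed level of 7.03 to 21.1 TPM. The summed level of 7 fibroblast markers was 4000 to 10400 TPM and that of 6 smooth muscle markers 946 to 1880 TPM, so the endothelial identity of the line is not supported by its markers. Both sums were lower with TNF in every line. For fibroblast markers they were 5940 against 9160 TPM in KO, 4000 against 9100 TPM in Rescue and 5060 against 10400 TPM in WT. For smooth muscle markers they were 1170 against 1710, 946 against 1880 and 1050 against 1570 TPM in the same lines. The part of these shifts in the TNF differences below was not tested. Junction reads totalled 14729518 to 16886361 per library, and the median first exon had 80 to 89 reads.

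The junctions below carry the results that follow, because the read that crosses them is what assigns an RNA to a first exon. Each is 30 bases of spliced RNA from GENCODE vM21 transcripts on GRCm38, written as DNA, with the last 15 bases of the first exon or of the other donor exon in capitals and the first 15 bases of the shared next exon in lower case. Within a gene only the capitals differ.
Map2k6 first exon (node 4): TCTGGAGATGGTCAAgcaagaagcgaaacc
Map2k6 other donor (node 2): TGTCTCAGTCGAAAGgcaagaagcgaaacc
Sh3kbp1 first exon (node 5): GACTTGCCTGAGAGTgaaataaagaaagat
Sh3kbp1 other donor (node 3): GACAACTTTGTAAGAgaaataaagaaagat
Trio first exon (node 48): GGATCCTCGACCTAGactcactgtcggtct
Trio other donor (node 47): TCTTCAACCACAAAGactcactgtcggtct
Slc23a2 first exon (node 2): GAGATTCCGTTGAAGgtgataggagatgac
Slc23a2 other donor (node 1): GCGAGCTGCAGGCAGgtgataggagatgac
Rara first exon (node 11): ATGGCTCAAACCACTccatcgagacccaga
Rara other donor (node 10): CACCGTCCCCAGCCAccatcgagacccaga
Cdkn2a first exon (node 2): CGTACCCCGATTCAGgtgatgatgatgggc
Cdkn2a other donor (node 1): GGAATCCTGGACCAGgtgatgatgatgggc
Col18a1 first exon (node 7): AGCCTGGTCTACAGAgggatgatctcagag
Col18a1 other donor (node 6): CCTGACAAGTTCCAGgggatgatctcagag

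Most annotated first exons were not in play in these cells. Of 2602 alternative first exons, 1558 had a Psi of 0 in all 6 libraries and 83 a Psi of 1 in all 6. The fit held nodes with a mean Psi between 0.05 and 0.95, which were 277 first exons in 260 genes and 4459 transcript starts in 1937 genes. Across the 6 libraries the median range of Psi was 0.153 for these first exons and 0.333 for the starts. The first exons were long enough to be sequenced as units, with a median length of 182 nt in the fit, whereas among all kept nodes 3248 of 14278 starts (22.7%) and 4 of 2602 first exons (0.154%) spanned 10 nt or less. First exons overlapped coding sequence in 78 of 277 cases (28.2%).

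The types also differed in how far Psi varied beyond counting error once line and TNF were fitted. For the median first exon the variance left by that fit was 1.2 times that expected from counting error, near the 1.35 of cassette exons. For the median start it was 7.28 times. Of the starts in the fit, 196 (4.4%) had a Psi at or very close to 0 in 1 library and to 1 in another, and no first exon did. Psi lay at or very close to 0 or 1 in 22.7% of start values and 4.87% of first exon values. Values within 0.0005 of 1/2, 1/3 or 1/4 made up 8.37% of start values and 1.01% of first exon values. Psi of a first exon did not always equal the share of junction reads into its next exon: it lay within 0.02 of the share of junction reads in all 6 libraries for 151 of 277 first exons. Near the read minimum, 103 first exons had 20 or 21 reads in their lowest library and 131 had 18 or 19, and the median range of Psi was 0.224 over the 15 inside and 0.25 over the 19 outside that had an intermediate Psi.

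No first exon and no transcript start passed the test for TNF. Limma called 0 of 4736 first exons and starts and 0 of 25886 nodes of all types (0.0%) at an adjusted p under 0.05 with a Psi difference of 0.1 or more. At an unadjusted p under 0.05 there were 235 first exons and starts, of which 19 were first exons, and 1111 nodes of all types. The lowest adjusted p of a first exon was 0.818 and that of a start 0.218. The test has 2 residual degrees of freedom and sets the TNF effect against its inequality across lines. A quasi-binomial model of the same reads called 413 of 4736 first exons and starts, and 922 of 25886 nodes of all types. Of the 413, 2 were first exons, those of Clcn6, a chloride transporter of endosomes, and of Myh10. For Clcn6 Psi was 0.075, 0.156 and 0.143 with TNF in KO, Rescue and WT and 0 without TNF in every line, and the first exon had 3, 5 and 4 junction reads of its own with TNF and 2 in each library without it. For Myh10 Psi was 0 in all libraries except KO with TNF.

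Described without a test, Psi differed by 0.1 or more with TNF, in 1 direction in all 3 lines, for 13 of 277 first exons (4.69%), 4 higher and 9 lower. The same held for 680 of 25886 nodes of all types (2.63%, with 1.24% higher and 1.39% lower). Without the tandem types, which are transcript starts and transcript ends, it held for 98 of 8337 nodes (1.18%, with 0.468% higher and 0.708% lower). Cassette exons met it in 1.14%, alternative donors in 1.26% and retained introns in 0.89% of cases. Under the labels' groups it was met by 2 of 277 first exons, neither of them among the 13, and by 69 of 8337 nodes (0.828%) without the tandem types. The 13 were named after their values were seen, since the rule for naming genes picked transcript starts only. They lay in 13 genes on 10 chromosomes, spanned 106 to 1000 nt, and 4 of them overlapped coding sequence. With the share of junction reads in place of Psi, 10 first exons met the same criterion, 9 of them among the 13.

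**Figure D1:**
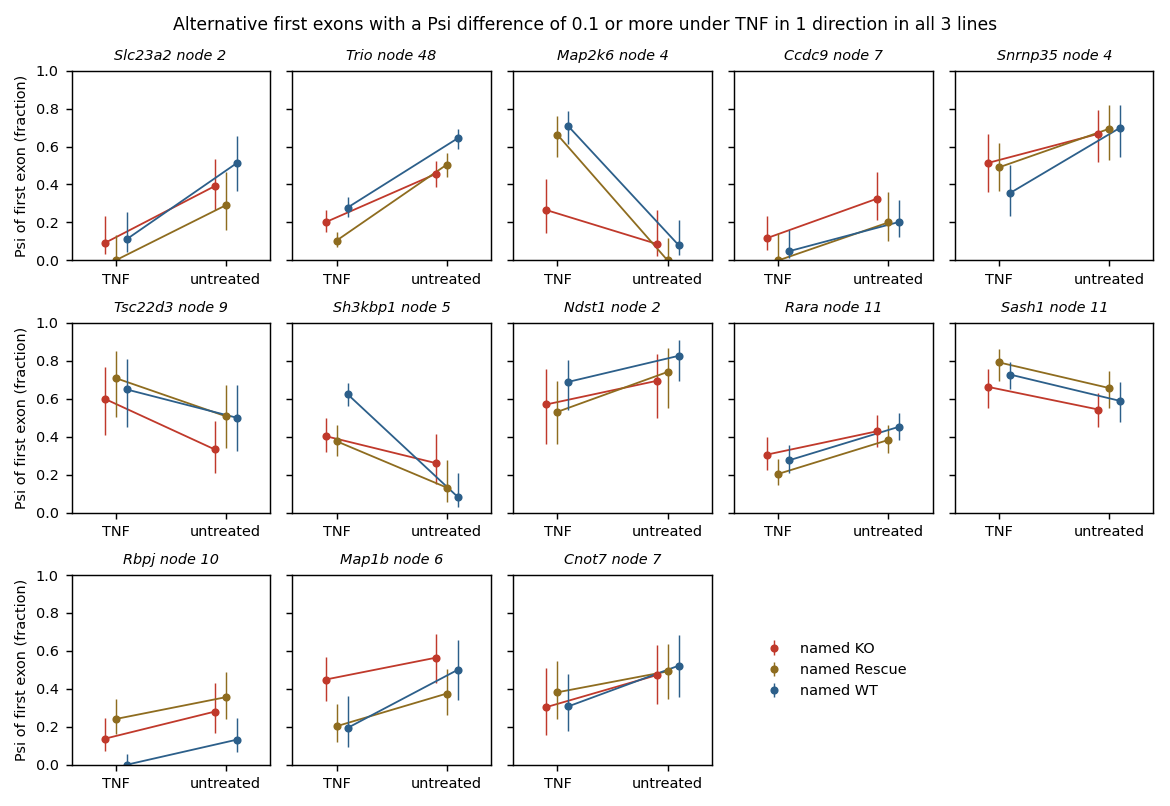
Psi (fraction) of the 13 first exons with and without TNF, 1 line per cell line, bars showing the 95% Wilson interval from the reads of 1 library. Map2k6, Sh3kbp1, Tsc22d3 and Sash1 were higher with TNF in all 3 lines, and the other 9 were lower.

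Map2k6 encodes MKK6, a kinase that activates the p38 stress kinases. Its downstream first exon, at chr11:110479039-110479435 on the plus strand, lies 3104 nt before the shared exon, whereas the other donor of the pair shown above lies 83114 nt before it. The first exon starts 1 annotated transcript, which is not protein-coding, and it overlaps no coding sequence. Psi was 0.265 with TNF and 0.087 without in KO, 0.662 with TNF and 0 without in Rescue, and 0.706 with TNF and 0.0807 without in WT. The junction reads of this exon numbered 9 with TNF against 2 without in KO, 47 against 0 in Rescue and 72 against 3 in WT. Reads from other donors into the same exon numbered 25 against 21 in KO, 24 against 29 in Rescue and 30 against 33 in WT. The downstream exon thus held the larger part of the junction reads with TNF in Rescue and WT and the smaller part in KO, and the count of reads from the other donors differed by 3 to 5 between the libraries of each line. The mean Psi difference was 0.488, limma's unadjusted p was 0.0312 and the adjusted p 0.818. The mean difference was 0.0178 with the labels' groups. The 95% Wilson intervals, which cover counting error only, were apart in Rescue and WT and overlapped in KO. The gene as a whole was at 9.9 against 7.67 TPM in KO, 30.9 against 10.3 TPM in Rescue and 43.0 against 16.3 TPM in WT, with TNF given first. Its log2 fold change under TNF was 1.25 ± 0.25 (SE) with an adjusted p of 0.0307 by edgeR's quasi-likelihood test.

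Sh3kbp1 encodes CIN85, an adaptor protein in receptor endocytosis. Its first exon at chrX:159708601-159708743, plus strand, starts 2 annotated transcripts and overlaps coding sequence. Psi was 0.403 with TNF and 0.261 without in KO, 0.376 with TNF and 0.132 without in Rescue, and 0.624 with TNF and 0.0833 without in WT. Junction reads of the exon numbered 39 with TNF against 9 without in KO, 51 against 5 in Rescue and 139 against 3 in WT. Reads from other donors were also more numerous with TNF, at 72 against 30, 78 against 31 and 91 against 38 in KO, Rescue and WT. The first exon and the other route were therefore both higher with TNF, the first exon by more. The mean Psi difference was 0.309 (limma, unadjusted p 0.0512, adjusted p 0.818), and the Wilson intervals were apart in Rescue and WT. The gene rose under TNF with a log2 fold change of 0.94 ± 0.17 (SE), adjusted p 0.0257 by edgeR. With the labels' groups the mean difference of Psi was -0.0191.

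Trio, a guanine nucleotide exchange factor, went the other way. Its internal first exon at chr15:27788075-27788638, minus strand, starts 1 annotated protein-coding transcript and overlaps coding sequence, and the other donor belongs to longer transcripts that start upstream. Psi was 0.201 with TNF and 0.455 without in KO, 0.104 with TNF and 0.504 without in Rescue, and 0.278 with TNF and 0.643 without in WT. Junction reads of the exon numbered 37 against 86 in KO, 22 against 117 in Rescue and 71 against 191 in WT. Reads from other donors numbered 147 against 103, 190 against 115 and 184 against 106 in the same lines. In every line the internal first exon was lower and the longer route higher with TNF. The Wilson intervals were apart in all 3 lines. The mean Psi difference was -0.34 (limma, unadjusted p 0.00499, adjusted p 0.818), and -0.189 with the labels' groups. The level of the gene did not pass, with a log2 fold change of -0.07 ± 0.11 (SE), adjusted p 0.629 by edgeR.

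Slc23a2 encodes SVCT2, a sodium-dependent vitamin C transporter. Its downstream first exon, at chr2:132111342-132111448 on the minus strand, overlaps no coding sequence. Psi was 0.0909 with TNF and 0.391 without in KO, 0 with TNF and 0.29 without in Rescue, and 0.111 with TNF and 0.512 without in WT. The reads behind it were few: 3 against 18 in KO, 0 against 9 in Rescue and 4 against 21 in WT, with 30 against 28, 25 against 22 and 32 against 20 from other donors. The intervals were apart in all 3 lines, as they were for Trio and for no other of the 13. The mean Psi difference was -0.33 (limma, unadjusted p 0.00565, adjusted p 0.818), and -0.211 with the labels' groups. The gene had a log2 fold change of -0.29 ± 0.07 (SE), adjusted p 0.0503 by edgeR.

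**Figure D2:**
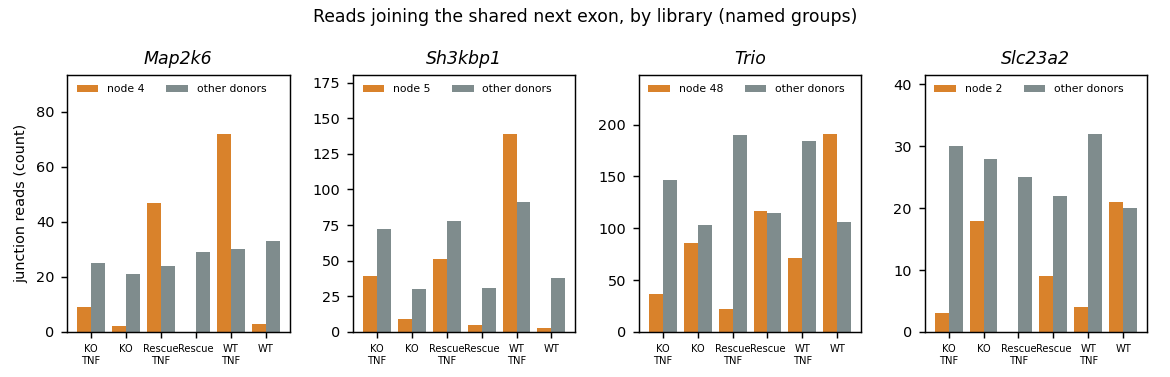
Junction reads (count) into the shared next exon from the first exon, orange, and from other donors, grey, in each of the 6 libraries for Map2k6, Sh3kbp1, Trio and Slc23a2. In Map2k6 the orange bars reach 47 and 72 in Rescue and WT with TNF while the grey bars stay between 21 and 33, and in Trio the orange bars are lower with TNF in each line.

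Among first exons that overlap coding sequence were also those of Rara, the retinoic acid receptor alpha, and Sash1, a scaffold protein. The Rara exon at chr11:98960412-98961133, plus strand, had a Psi of 0.306 with TNF and 0.429 without in KO, 0.204 and 0.383 in Rescue, and 0.276 and 0.453 in WT. Its mean difference was -0.16 (limma, unadjusted p 0.0163, adjusted p 0.818), and the share of junction reads, at 0.275 against 0.423, 0.206 against 0.385 and 0.227 against 0.385, was lower in the same lines. The Sash1 exon at chr10:8762095-8762474, minus strand, had a Psi of 0.662 with TNF and 0.543 without in KO, 0.791 and 0.656 in Rescue, and 0.727 and 0.588 in WT. Its libraries with TNF were the higher ones in every line, by a mean of 0.131 (limma, unadjusted p 0.0245, adjusted p 0.818). The Wilson intervals with and without TNF overlapped in all 3 lines for Sash1 and were apart in Rescue and WT for Rara.

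Among the non-coding first exons with fewer reads, that of Snrnp35, a protein of the minor spliceosome, had a Psi of 0.514 with TNF and 0.667 without in KO, 0.491 and 0.694 in Rescue, and 0.356 and 0.7 in WT. Map1b, a microtubule-associated protein, had 0.449 and 0.564 in KO, 0.203 and 0.375 in Rescue, and 0.194 and 0.5 in WT, again with TNF first. Ccdc9 had 0.118 and 0.326 in KO, 0 and 0.2 in Rescue, and 0.0488 and 0.203 in WT. All 3 were lower with TNF in every line, and their Psi followed the share of junction reads in every line. The Wilson intervals overlapped in all 3 lines for Map1b and Ccdc9 and were apart only in WT for Snrnp35. With the labels' groups the mean difference was -0.008 for Snrnp35, -0.077 for Map1b and -0.0866 for Ccdc9.

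For Tsc22d3, Rbpj and Ndst1 the junction reads followed the direction of Psi in some or all lines but not its size, and for Cnot7 they gave no comparison. Tsc22d3, the glucocorticoid-induced leucine zipper, had a higher Psi with TNF in all lines, at 0.649 against 0.5 in WT, and its share of junction reads was 0.52 with TNF and 0.333 without in KO, 0.565 and 0.355 in Rescue, but 0.2 and 0.357 in WT. The Tsc22d3 gene fell under TNF, with a log2 fold change of -0.83 ± 0.09 (SE), adjusted p 0.00972 by edgeR. Rbpj, the DNA-binding partner of Notch, had a Psi of 0.241 with TNF and 0.356 without in Rescue and a junction share of 0.173 with TNF and 0.15 without, while the share was lower with TNF in KO, at 0.128 against 0.234, and in WT, at 0.0727 against 0.12. For Ndst1, a heparan sulfate modifying enzyme, the junction share was lower with TNF in every line, as Psi was: 0.135 against 0.161 in KO, 0.486 against 0.667 in Rescue and 0.608 against 0.76 in WT. In KO these shares stood beside a Psi of 0.57 and 0.694. For Cnot7, a deadenylase subunit, no other donor had a read into the shared exon in any library, so its difference in Psi, -0.164 on average, does not rest on those junctions.

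Other first exons had an unadjusted p under 0.05 in a fit without the tandem types, but moved by less than 0.1 in some line. Atp2b1, a plasma membrane calcium pump, had a Psi of 0.381 with TNF and 0.214 without in KO, 0.264 and 0.208 in Rescue, and 0.454 and 0.304 in WT, from 25 to 139 junction reads of its own per library. Tns3, a focal adhesion protein, had 0.774 and 0.683 in KO, 0.867 and 0.785 in Rescue, and 0.79 and 0.664 in WT. Set, a histone chaperone, had 0.718 and 0.804 in KO, 0.647 and 0.795 in Rescue, and 0.668 and 0.812 in WT. Each of these pairs has TNF first, and in each gene all 3 lines moved the same way. The mean difference was 0.124 for Atp2b1, 0.0997 for Tns3 and -0.126 for Set. With the labels' groups it was -0.0397, 0.0963 and -0.0413 in the same genes.

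In single lines, 20 first exons were higher and 41 lower by 0.1 or more with TNF in KO, 37 and 44 in Rescue, and 35 and 53 in WT, of 277. The share of all nodes that did so in single lines is not given here, so these counts describe first exons only. Across first exons, the TNF differences of any pair of lines, which share no library, correlated with Pearson's r of 0.21 for KO and WT, 0.21 for Rescue and WT and 0.32 for Rescue and KO. Across the 4459 starts the same values were 0.04, -0.03 and 0.07. Where a first exon moved by 0.1 or more in both lines, the sign was the same for 22 of 31 in KO and WT, 32 of 43 in Rescue and WT and 23 of 29 in Rescue and KO. Of starts that moved by 0.1 or more in both lines, 595 of 1140 had the same sign in KO and WT, 537 of 1097 in Rescue and WT and 558 of 1042 in Rescue and KO. These correlations are across nodes, which are not replicates, and nodes of 1 gene share reads. Cassette exons and the other types outside tandem sets were not compared in this way. Whether the likeness between lines is particular to first exons was therefore not tested.

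**Figure D3:**
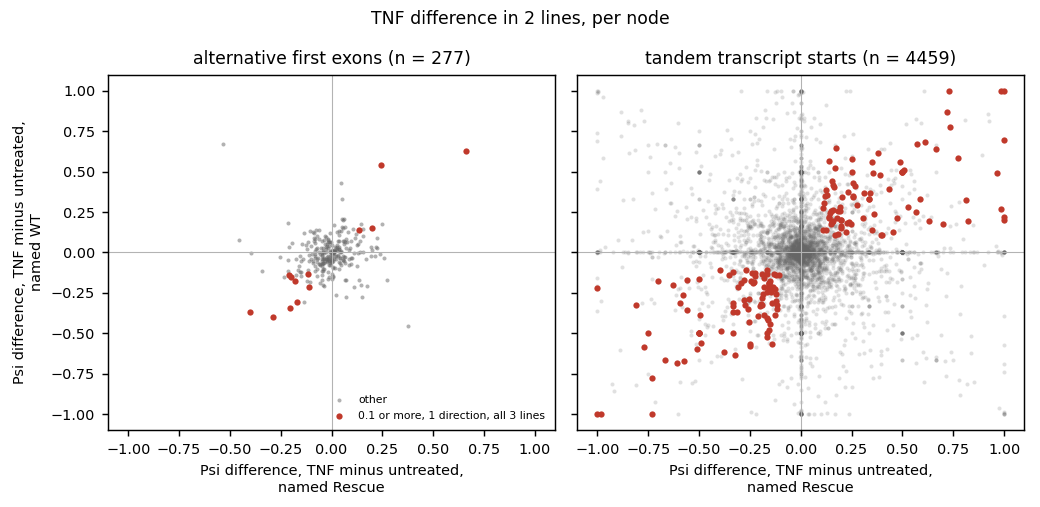
Psi difference, TNF minus untreated, in Rescue on the x axis and in WT on the y axis, for 277 first exons and 4459 transcript starts, with nodes that moved by 0.1 or more in 1 direction in all 3 lines in red. The first exons lean along the diagonal (r = 0.21) and the starts form a cross with values at 1 and -1 on the axes (r = -0.03).

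Gene levels were tested beside the choice of first exon. Of the 13 genes, 12 entered the gene-level test and 4 were called under TNF (33.3%): Map2k6, Sh3kbp1 and Rbpj rose and Tsc22d3 fell. Of genes with a first exon in the fit, 63 of 230 were called (27.4%), and of all genes tested 2802 of 12729 (22.0%). With the labels' groups no gene was called in any comparison.

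Genes known for their TNF response hardly entered the comparison of first exons. Of 54 TNF and NF-kB target genes, 10 had a node kept, and 2 had a first exon with an intermediate Psi, Fas and Tnfaip3. Tnfaip3, an inhibitor of NF-kB signalling, had a Psi of 0.146 with TNF and 0.128 without in KO, 0.0837 and 0.0227 in Rescue, and 0.103 and 0.13 in WT, while the gene rose with a log2 fold change of 2.32 ± 0.42 (SE), adjusted p 0.0245 by edgeR. Fas, a death receptor, had a Psi of 0.0741 and 0.0256 in KO, 0.122 and 0.375 in Rescue, and 0.175 and 0.204 in WT, with a log2 fold change of the gene of 1.55 ± 0.39 (SE), adjusted p 0.0478 by edgeR. In both, the lines did not move the same way. Of 63 interferon response genes, 24 had a node kept and none had a first exon in the fit.

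Of 40 genes known for alternative promoters, 26 had a node kept and 8 had first exons in the fit, 10 in number. Of these 10, 6 moved by 0.1 or more under TNF in some line and none in all 3, against 146 and 13 of all 277 first exons. Their median TNF difference was -0.029, against -0.016 over all 277. The largest was Nfatc1, a calcineurin-dependent transcription factor, at 0.409 with TNF and 0.706 without in KO, 0.541 and 0.613 in Rescue, and 0.593 and 0.654 in WT. A first exon of Plec, a cytolinker with many first exons, was at 0.149 and 0.26 in KO, 0.138 and 0.279 in Rescue, and 0.212 and 0.25 in WT. Both were lower with TNF in every line and missed 0.1 in at least 1. Of 41 splicing regulators, 34 had a node kept and 2 had a first exon in the fit. Mbnl1, an RNA-binding splicing factor, had a Psi of 0.204 and 0.375 in KO, 0.205 and 0.417 in Rescue, and 0.394 and 0.443 in WT, with TNF first. Its share of junction reads was lower by 0.1 or more in all 3 lines, at 0.0747 against 0.189, 0.0777 against 0.261 and 0.186 against 0.391. Celf2, an RNA-binding protein, had a Psi of 0.0926 and 0.0564 in KO, 0.19 and 0.0429 in Rescue, and 0.243 and 0.0685 in WT. With the labels' groups the mean difference was -0.129 for Mbnl1 and -0.0141 for Celf2, against -0.144 and 0.119 with the named ones.

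Promoter sequence could be read for few of these first exons. Of 37 first exons named in the comparisons, 6 had a RefSeq start within 20 nt. In the 250 bases before those 6 starts, both strands searched, TATAAA and TGANTCA (the AP-1 letters) were found in 0 and the kappa-B motif in 1, that of Tmem237. Of 32851 RefSeq promoters of the same length, 12.4% held TATAAA, 6.75% TGANTCA and 7.25% the kappa-B motif. In Map2k6 the window before the farthest upstream RefSeq start held TGANTCA. That before the RefSeq start nearest upstream of the downstream first exon held none of the motifs. A RefSeq start also lies 301 nt into that exon, and the window before it holds TATAAA on the opposite strand, within the exon. It is shown with the motif in capitals, at chr11:110479122-110479151, plus strand, GRCm38.p6: actgggctcccaTTTATAactgctgggctg. A match of letters is a description and not a binding site.

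Between lines, no first exon or start passed the test. For KO and WT, for Rescue and KO and for Rescue and WT, limma called 0 of 4736, and 0 of 25886 nodes of all types (0.0%) in each. At an unadjusted p under 0.05 there were 371, 359 and 356 first exons and starts in these comparisons, of which 13, 9 and 10 were first exons, and 1966, 1941 and 1627 nodes of all types. The quasi-binomial model called 33, 33 and 29 first exons and starts, none of them a first exon, and 86, 89 and 90 nodes of all types. Described without a test, both libraries of KO lay apart from both of WT by 0.1 or more for 14 of 277 first exons (5.05%), 7 higher and 7 lower. The same held for 8.28% of all nodes, 7.11% of nodes without the tandem types (3.8% higher and 3.31% lower in KO) and 11.6% of cassette exons. Rescue and KO were apart for 9 first exons (3.25%), against 8.23% of all nodes and 6.47% without the tandem types (3.08% higher and 3.38% lower in Rescue). Rescue and WT were apart for 8 first exons (2.89%), against 6.95% of all nodes and 2.65% without the tandem types (1.38% higher and 1.27% lower in Rescue). With the labels' groups 3, 7 and 1 first exons were apart in these comparisons, against 1.87%, 1.91% and 1.25% of nodes without the tandem types. Of the first exons apart by the named groups, the mean difference had the opposite sign with the labels' groups for 12 of 14 in KO and WT, 7 of 9 in Rescue and KO and 1 of 8 in Rescue and WT. Those signs are partly built in, because each labelled line joins libraries of different named lines.

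Cdkn2a had the most junction reads of the first exons apart between lines. It encodes unrelated tumour suppressors from alternative first exons, Ink4a from the downstream exon 1-alpha and Arf from the upstream exon 1-beta, joined to the same next exon in different reading frames. Psi of the Ink4a first exon, at chr4:89281986-89282192 on the minus strand, was 0.227 with TNF and 0.242 without in KO, 0.397 and 0.35 in Rescue, and 0.388 and 0.382 in WT. Its junction reads numbered 590 and 744 in KO, 1004 and 1010 in Rescue and 1791 and 1226 in WT. Reads from the Arf exon numbered 2011 and 2333 in KO, 1525 and 1872 in Rescue and 2822 and 1983 in WT. Both KO libraries lay below all 4 others, and Rescue and WT overlapped. The difference of KO and WT was -0.15 (limma, adjusted p 0.36) and that of Rescue and KO 0.139 (limma, adjusted p 0.417). A fit without the tandem types was added after seeing that no node was called. Of its 8337 nodes, limma called 0 for TNF, 209 for KO and WT (2.51%), 157 for Rescue and KO (1.88%), 3 for Rescue and WT (0.036%) and 1 for the TNF response of KO (0.012%). First exons among them were that of Cdkn2a for KO and WT, and those of Cdkn2a and Col18a1 for Rescue and KO. For Cdkn2a the limma adjusted p in this fit was 0.0131 and 0.0214, with differences of -0.15 and 0.139. The quasi-binomial model of that fit gave an adjusted p of 0.388 and 0.413. On the logit scale of that fit the limma adjusted p was 0.0617 and 0.0927. Leaving out 1 library gave 0.0169 to 0.132 for KO against WT and 0.0586 to 0.168 for Rescue against KO. The call for KO against WT was lost without KO with TNF, without KO, without WT with TNF and without WT, at adjusted p of 0.115, 0.0515, 0.118 and 0.132. With the labels' groups the differences were 0.0645 and -0.0495, with an adjusted p of 1 by limma for each.

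Col18a1, the collagen from which endostatin is cut, had its Rescue libraries apart from the other lines. Psi of its downstream first exon, at chr10:77089200-77089428 on the minus strand, was 0.541 with TNF and 0.317 without in Rescue, 0.0526 and 0.0722 in KO and 0.155 and 0.0645 in WT. The exon had 46 and 13 junction reads in Rescue, 15 and 14 in KO and 97 and 16 in WT, while the other donors had 39 and 28 in Rescue, 270 and 180 in KO and 530 and 232 in WT. The higher Psi in Rescue therefore went with fewer reads of the other route. The gene fell in Rescue against KO by 2.11 ± 0.11 (SE) on the log2 scale, adjusted p 0.00279 by edgeR. The Psi difference of Rescue and KO was 0.367 (limma, adjusted p 0.436). In the fit without the tandem types the limma adjusted p was 0.0274, on its logit scale 0.112. Without single libraries it was 0.0255 to 0.126, under 0.05 only where the library named KO without TNF was left out. The quasi-binomial model of that fit gave an adjusted p of 0.495. The difference with the labels' groups was 0.0706, with a limma adjusted p of 1.

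Further first exons with the libraries of KO and WT apart rested on fewer reads, and none had a limma adjusted p under 0.344. Mrtfa, a coactivator of serum response factor, had a Psi of 0.269 with TNF and 0.35 without in KO, 0.15 and 0.198 in Rescue, and 0.088 and 0.138 in WT, at a coding first exon. D6Wsu163e had 0.25 and 0.182 in KO, 0.0952 and 0.0667 in Rescue, and 0.0323 and 0 in WT. In both, KO was the highest, Rescue intermediate and WT the lowest. Hdgfl2 had 0.106 and 0.092 in KO, 0.0878 and 0.137 in Rescue, and 0.227 and 0.241 in WT, so that KO and Rescue overlapped and WT was higher. Bcl2l2, an inhibitor of apoptosis, had 0.505 and 0.476 in KO, 0.645 and 0.6 in Rescue, and 0.74 and 0.61 in WT. In these 4 genes Psi lay within 0.02 of the share of junction reads. In Tns2, another focal adhesion protein, Psi was 0.556 and 0.49 in KO and 0.243 and 0.286 in WT, but the junction shares were 0.106 and 0.131 in KO and 0.0559 and 0.0737 in WT. The others apart in KO and WT were Iqsec2, Mcts1, Cnppd1 and Lsp1, higher in KO, and Fas, Iqsec1, Tcf4 and Kdm4a, lower in KO.

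**Figure D4:**
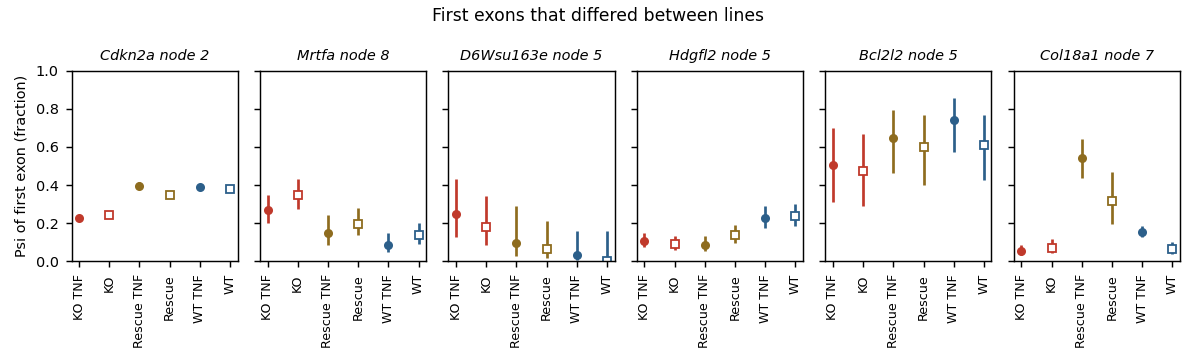
Psi (fraction) of 6 first exons in each of the 6 libraries, filled points with TNF and open points without, bars showing the 95% Wilson interval from the reads of 1 library. Cdkn2a is lower in both KO libraries, at 0.227 and 0.242, than in the other 4, and Col18a1 is higher in both Rescue libraries, at 0.541 and 0.317.

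Rescue and KO were also apart for Tmem237 and Bcl2l11, higher in Rescue, and for Kdm2b, Mcts1, Cdc14b, Tns2 and Zeb1, lower in Rescue. Bcl2l11, which encodes the apoptosis inducer BIM, had a Psi of 0.217 with TNF and 0.288 without in Rescue, 0.0877 and 0.111 in KO and 0.111 and 0.254 in WT. Here the WT libraries overlapped those of both other lines. Rescue and WT were apart for Col18a1, Tmem237 and Rbpj, higher in Rescue, and for Pvt1, Ddr1, Stard13, Ing1 and Cdc14b, lower in Rescue. Stard13 had a Psi of 0 in both Rescue libraries, 0.169 and 0.0856 in KO and 0.175 and 0.231 in WT, from at most 6 junction reads of its own per library.

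Whether the TNF response of first exons was different in KO was tested with a term for TNF in KO, which leaves 1 residual degree of freedom and treats WT and Rescue as if they were replicates. Limma called 0 of 4736 first exons and starts and 0 of 25886 nodes (0.0%). At an unadjusted p under 0.05 there were 487 of 4736 first exons and starts, and 1949 of 25886 nodes of all types. Of the 487, 3 were first exons, of 277 tested. The quasi-binomial model called 50 first exons and starts, and 220 nodes of all types. Of the 50, 1 was a first exon, that of Stard13, whose Psi was 0 in both Rescue libraries. The largest difference among first exons was that of Map2k6, whose mean TNF difference was smaller in KO by 0.466 in Psi (limma, unadjusted p 0.0783, adjusted p 0.74). Its TNF difference was 0.178 in KO, 0.662 in Rescue and 0.625 in WT. Maff, a small Maf transcription factor, had a Psi of 0.0526 with TNF and 0.208 without in KO, 0.0494 and 0 in Rescue and 0.16 and 0 in WT (limma, adjusted p 0.69). It was lower with TNF in KO and higher in both other lines, from at most 20 junction reads of its own. Elmsan1 was at 0.568 with TNF and 0.619 without in KO, 0.712 and 0.667 in Rescue and 0.741 and 0.31 in WT, so WT and Rescue themselves differed. For Myh10, a non-muscle myosin, a Psi of 0.391 in KO with TNF and of 0 in the 5 other libraries rested on 1 own junction read of 51. For Myl12a, a myosin light chain, Psi of 0.0185 to 0.7 came with 1 to 7 own junction reads and 70 to 148 from other donors.

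Of 4459 transcript starts in tandem, 177 (3.97%) differed by 0.1 or more with TNF in 1 direction in all 3 lines, 87 higher and 90 lower. All nodes did so in 2.63% of cases and transcript ends in 3.09%. Under the labels' groups 183 starts (4.1%) met the criterion, 4 of them among the 177. Psi was read for the first node of the deposited path and not for the row that holds it, and read for the row 122 starts met the criterion, 95 of them shared, 66 of these with the opposite sign. The reading was chosen on seeing the files. Both readings hold the same Psi values in another order, so the sum of Psi over a set of starts cannot tell them apart. In 293 sets of 2 starts with 1 of them within 5 nt of a RefSeq start, the start at RefSeq had a mean Psi of 0.611 when read by path and 0.389 when read by row. The direction of every start given here depends on this reading.

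The 15 starts with the largest smallest difference over the lines, which the rule for naming genes picked, were in Lrch1, Igf1r, Vac14, Uvrag, Pet100, Ttc23, Pnpla2, Ints10, Rbm5, Stx7, Sdcbp, Cfl1, 1110038B12Rik, Ubn1 and Mrpl28, with limma adjusted p of 0.218 to 0.818. Igf1r, the receptor of insulin-like growth factor, had a Psi of 1 with TNF in all lines and of 0.108 in KO, 0.266 in Rescue and 0.222 in WT without it, at a node of 1579 nt. Mrpl28, a mitochondrial ribosomal protein, had 0.411 with TNF and 0.858 without in KO, 0.281 and 0.674 in Rescue, and 0.354 and 0.837 in WT, at a node of 24 nt. Most of the others were short, with 3 nt in Pet100, 4 in Vac14, 6 in Ttc23, 7 in Rbm5 and 10 in Lrch1. In Cfl1, which encodes cofilin, and in Sdcbp, which encodes syntenin, Psi was exactly 0.5 with TNF and 1 without in every line, and in Stx7, a syntaxin of endosomes, exactly 1 with TNF and 0.5 without. In Pet100 it was 0.333 with TNF and 1 without in every line. The same exact values thus stood in all 3 lines, on reads that differed between them. The 15 were picked for agreement between lines. Of all starts that moved by 0.1 or more in both lines, the sign was the same for 595 of 1140 in KO and WT. It was the same for 537 of 1097 in Rescue and WT and 558 of 1042 in Rescue and KO.

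Several of the starts named between lines lay near 0 in 1 line and near 1 in another by the named groups. In Mycbp2, an E3 ubiquitin ligase, and Frmd4a, a scaffold of cell polarity, Psi of a start of 14 and of 19 nt was between 0.988 and 1 in all 4 libraries of KO and Rescue and 0 in both of WT, with limma adjusted p of 0.103 and 0.107 for KO against WT. Tle1, a Groucho corepressor, had 0.87 and 0.976 in KO, 0.99 and 0.88 in Rescue and 0.002 in both WT libraries. In these 3 genes KO and Rescue lay together and WT apart. KO and Rescue come from the same clone, and its part in this was not tested. In Chic2 a start of 453 nt had a Psi of 1 in both KO libraries, 0.079 and 0.0474 in Rescue and 0.128 and 0.0863 in WT, and in Aoc2, an amine oxidase, a start of 1597 nt had 1 in both KO libraries and 0 in the 4 others. For both the limma adjusted p was 0.0952 for KO against WT and 0.0847 for Rescue against KO. The difference of KO and WT with the labels' groups was 0 for Mycbp2, -0.456 for Chic2 and -0.5 for Aoc2. For the TNF response of KO the 10 picked were also starts, in 4833420G17Rik, Slc30a9, Man1a, Ogg1, Jmjd1c, Ocel1, Efr3a, Ttc13, Hpse and Mpc2, with limma adjusted p of 0.442 to 0.809.

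Of 8 genes singled out for their part in the TNF response or in the Ptbp family, Adar and Nfkb1 had no node kept. Nfkb2 and Shc1 had 3 starts each and Ptbp3 had 8. Ptbp1 had 1 first exon and 9 starts, and none was in the fit, as its start of 24 nt had a Psi of 1 within 0.0002 in all 6 libraries. Mdm2, the ubiquitin ligase of p53, had 4 starts in the fit, and its gene rose under TNF with a log2 fold change of 0.84 ± 0.11 (SE), adjusted p 0.0143 by edgeR. The most used Mdm2 start was at 0.92 with TNF and 0.414 without in KO, 0.31 and 0.827 in Rescue, and 0.837 and 0.644 in WT, so the lines did not move together. Ptbp2 had 6 starts, 2 of them in the fit as a pair late in the gene. The upstream start of that pair had a Psi of 0.635 with TNF and 1 without in KO, 0.82 and 1 in Rescue, and 0.762 and 0.973 in WT. It was lower with TNF in all 3 lines, by a mean of 0.252 (limma, unadjusted p 0.00786, adjusted p 0.818) and of 0.093 with the labels' groups, while the level of Ptbp2 as a gene had a log2 fold change of -0.01 ± 0.09 (SE), adjusted p 0.943 by edgeR.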

How the data were processed

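The authors deposited, per the file headers, Psi (a fraction) with an estimated number of reads for each splicing node, counts of reads per splice junction, and gene-level expected counts and TPM. The submitters' processing notes name RSEM. Its version, the aligner and the tool behind the Psi tables are not given in the sources used here. Coordinates match GENCODE vM21 (GRCm38). Deposited expected counts totalled 19598779 to 21626824 per library. They were rounded and tested with edgeR 4.0.16 (quasi-likelihood, TMM, additive model of line and TNF). SE of a gene restates the test: log2 fold change over the root of the F statistic.

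Psi was tested with limma 3.58.1 (R 4.3.3) on the arcsine square root scale, with a variance trend on log2 mean reads, over 25886 nodes of every type with 20 or more reads in all 6 libraries and mean Psi of 0.05 to 0.95, adjusted over all of them. The model was line plus TNF. Its p-values measure inequality across lines or treatments, not between cultures. DESeq2 1.42.0, a logit scale, a quasi-binomial model, other filters, the labels' groups and leaving out each library were alternatives. A fit without the tandem types (transcript starts and ends), the share of junction reads, and the reading of a start by path or by row were chosen after seeing the data. Members and lists were chosen with earlier results of these data known. Genes were to be named by the largest smallest TNF difference over lines and by the largest line differences. That rule picked only transcript starts, so first exons were named after their values were seen. The script was tested on simulated data for the TNF comparison only and without the tandem types. That test does not cover the fit over all node types.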

Additional observations from a re-analysis of the deposited data

Results flagged for a closer look

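Pak1, a kinase downstream of Rac and Cdc42, was singled out because TNF moved 1 of its first exons (chr7:97842935-97843141, plus strand) one way in the line named KO and the opposite way in the other lines, by 0.1 or more in each. Psi was 0.276 with TNF and 0.43 without in KO, 0.297 and 0.0491 in Rescue, and 0.454 and 0.278 in WT. The TNF difference was -0.154 in KO, 0.248 in Rescue and 0.176 in WT. The share of junction reads went the same ways, at 0.2 against 0.304, 0.176 against 0.0377 and 0.306 against 0.216, from 2 to 24 own reads per library. The Wilson intervals with and without TNF overlapped in all 3 lines. The difference between KO and the other lines, -0.366 in Psi, had a limma unadjusted p of 0.0892 and an adjusted p of 0.768. With 1 library per group no library could be compared with others of its group.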

How the results depend on the processing

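The groups have 1 library each and no replicate numbers to pair, and the TNF test itself compares the libraries within each line. Under the limma alternatives run over all node types (labels' groups, logit scale, filters, variance trend, each library left out) the count of first exons and starts called stayed 0 in every comparison. Leaving out libraries was not run for the TNF response of KO, where no residual degrees of freedom remain. The quasi-binomial model called 413 for TNF, 33 for KO against WT, 33 for Rescue against KO, 29 for Rescue against WT and 50 for the TNF response of KO. Over nodes of all types it called 922, 86, 89, 90 and 220 in the same order. Without the tandem types, limma called 1 for KO against WT (0 to 1 with each library left out) and 2 for Rescue against KO (0 to 1), the quasi-binomial model called 1 for the TNF response of KO, and the logit scale and the labels' groups called 0 in every comparison. First exons and starts that TNF moved the same way in all lines numbered 190 in the report, 70 at a Psi difference of 0.2 and 97 at 50 reads or more. First exons among them numbered 13 of 277 (4.69%), 2 of 277 (0.722%) and 3 of 136 (2.21%), and 2 of 277 (0.722%) under the labels' groups. Starts met the criterion in 3.97%, 1.53%, 3.94% and 4.1% of cases in the same order. The share over nodes of all types was 2.63% in the report and is not given here for the stricter settings. The cause was not tested. Under the labels' groups the mean TNF difference of Psi reversed for Ints10 (-0.0635), Sh3kbp1 (-0.0191) and Rbpj (0.107), and kept its sign for the other 11 first exons and 14 starts named for TNF. Its size was smaller by over 1.5 times for 11 of the 13 first exons, with 0.0178 in place of 0.488 for Map2k6, -0.008 in place of -0.233 for Snrnp35 and -0.0413 in place of -0.164 for Cnot7. The labels swap the TNF state only of the libraries named Rescue and WT with TNF. A TNF difference equal in all lines, with Rescue and WT alike, would thus keep its sign and become smaller. The kept signs and smaller sizes are therefore partly built in and are no check of the differences. All 28 kept their sign on the logit scale and with each library left out. The second was fixed in advance. The nodes were chosen for 1 sign in all 3 lines, and with a library left out the difference rests on the other lines. The logit scale keeps the order of Psi nearly as it is, so there too a change of sign was hardly possible. Gene-level calls under the labels' groups numbered 0, with log2 fold changes reversed for Map2k6 (-0.35), Rbpj (-0.03) and Sh3kbp1 (-0.07) and -0.27 for Tsc22d3. By DESeq2 Slc23a2 passed, at -0.29 with an adjusted p of 0.046. With 2 residual degrees of freedom, first exons with many reads, such as Cdkn2a, were not called over all node types either, and 136 of 277 had 50 or more reads in every library.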
